A study of Drosophila melanogaster with 5 samples.

Results

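The genes described here build or serve the sensory cilium of the fly: IFT54, nompA, nompB, nompC, iav, nan, btv, unc and Rfx. They were measured in heads of Drosophila melanogaster pupae dissected 80 h after pupa formation, in the mutant strain otd-uvi (3 arrays) and in the wild-type strain Canton S (2 arrays). Each array held RNA pooled from 15 to 20 heads. By its labels, otd-uvi is an eye-specific mutant allele of the homeobox gene otd (now oc). Each group was 1 strain, so the allele and the strain background cannot be told apart, and the sex of the heads is not given in the sources used here. Members were found as the probe sets whose array annotation names 1 of the 9 genes alone. This gave 12 probe sets of 13966 tested, for 8 of the 9 genes and of 10844 genes measured in all; unc had no such probe set and is not analysed here. IFT54 was chosen because its signal was higher in otd-uvi, so its difference is given as a description without a test. The other members were chosen for their function, to ask whether that rise is shared.

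A cilium is assembled by intraflagellar transport (IFT), in which trains of IFT-B and IFT-A proteins carry cargo along the axoneme. Kinesin-2 moves the trains to the tip, and cytoplasmic dynein 2 brings them back. In the fly, cilia are found on few cells, chiefly the mechanosensory and chemosensory neurons of bristles, antennae and chordotonal organs, and sperm have flagella. Fly photoreceptors capture light with microvilli and not with a cilium.

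Most of the members gave dim signals. MAS5 signals are on a linear scale, and the background of each array was read from 8 controls for mouse and yeast sequences. The brightest of these controls read 22.9, 11.2 and 16.2 on otd-uvi arrays 1, 2 and 3, against 9.30 and 9.13 on Canton S arrays 1 and 2. Of the 12 member probe sets, 3 exceeded the brightest control on all 5 arrays (nompA, Rfx and the brightest probe set of nompB) and 3 exceeded it on none. Differences below are otd-uvi minus Canton S on the scale log2(signal + 8), which understates the change of dim probe sets. The targeted gene oc read 27.6, 46.8 and 59.8 in otd-uvi, against 71.7 and 56.4 in Canton S, with a log2 difference of -0.49 (limma adjusted p = 0.527).

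IFT54 encodes a subunit of the IFT-B complex. Its own probe set (149889_at) read 51.2, 87.6 and 76.1 on the otd-uvi arrays, against 6.42 and 3.93 on the Canton S arrays. All 3 otd-uvi arrays lay above their brightest control, and both Canton S arrays lay below theirs. The means were 71.6 ± 18.6 in otd-uvi (SD, n = 3) and 5.18 ± 1.77 in Canton S (SD, n = 2), a log2 difference of 2.57. Because the Canton S signals are background, a fold was also taken against a floor, the brightest control of each Canton S array. By geometric means, the otd-uvi signal was 7.58-fold above that floor. Background was not removed from the otd-uvi signals, so this fold is not a strict lower bound. Without any 1 array the log2 difference lay between 2.43 and 2.77. It ranked 4th from the top among all 13966 probe sets. The pattern itself, with all otd-uvi arrays above the brightest control and no Canton S array above it, was found in 56 of the 13966 probe sets.

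**Figure D1:**
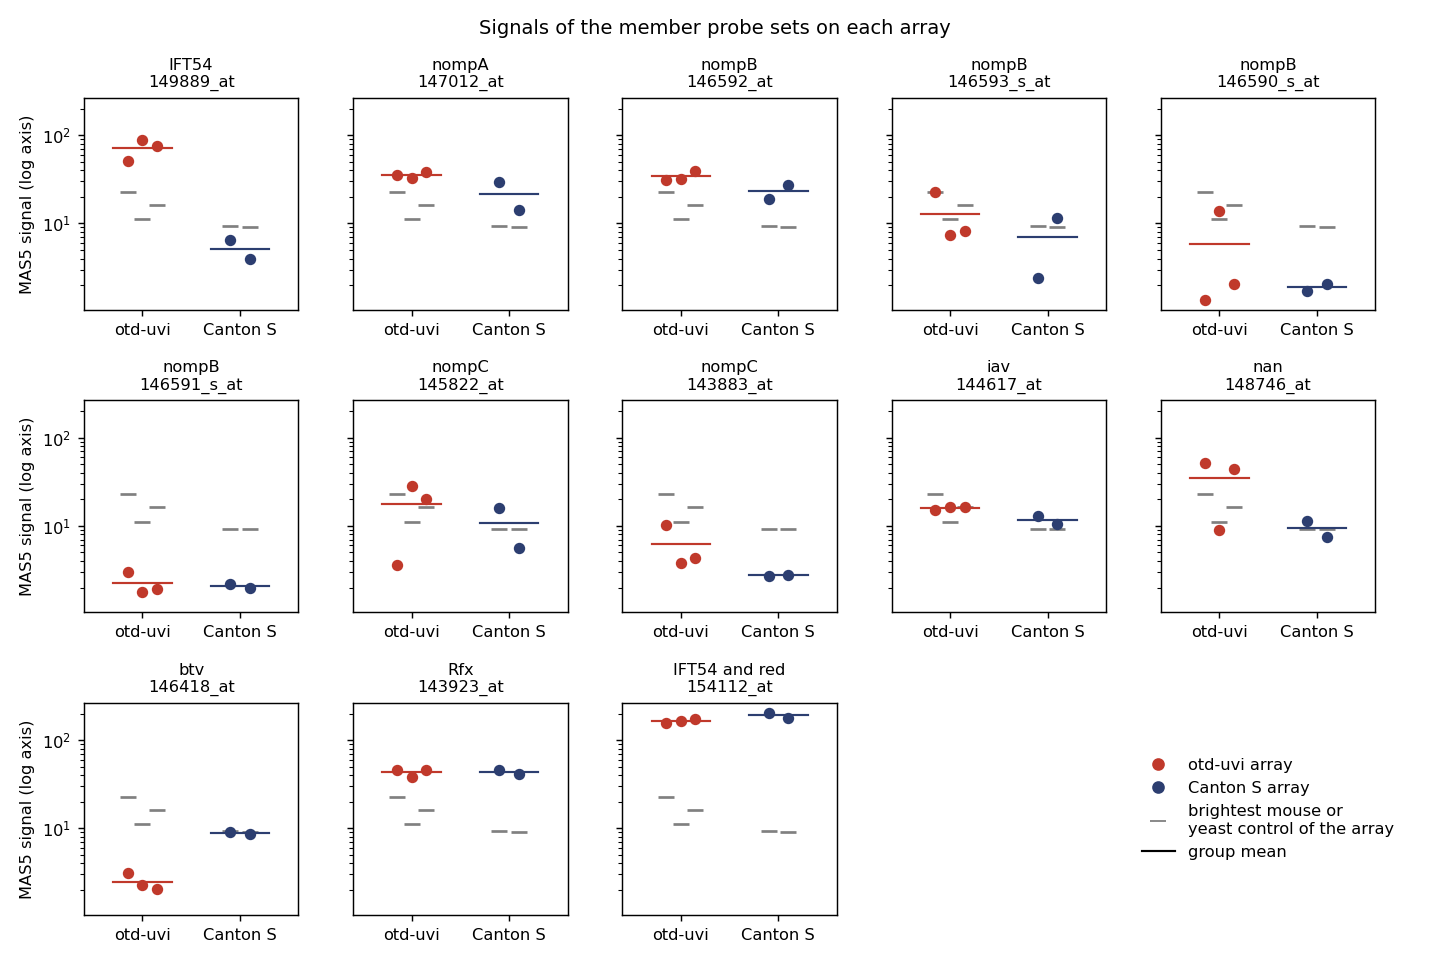
MAS5 signals (log axis) of the 12 member probe sets and of the probe set shared by IFT54 and red, 1 point per array, otd-uvi in red at the left and Canton S in blue at the right. Lines are group means, and grey dashes are the brightest mouse or yeast control of each array; IFT54 (149889_at) is above the dashes on the 3 otd-uvi arrays and below them on both Canton S arrays.

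A second probe set (154112_at) is annotated to both IFT54 and red, the gene next to it on chromosome 3R, which is known for its effect on eye colour. It read 156, 166 and 173 in otd-uvi, against 205 and 180 in Canton S. Every otd-uvi array was therefore lower than either Canton S array, the opposite order to the probe set that names IFT54 alone. The log2 difference was -0.21 (SE 0.16, 95% interval -0.58 to 0.16) and did not pass the test over all probe sets (limma adjusted p = 0.572). How the signal of this probe set divides between the genes cannot be read from it.

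The next IFT-B member, nompB, is the fly counterpart of IFT88 and is needed for the cilia of mechanosensory neurons. It had 4 probe sets of its own. The brightest (146592_at) read 31.2, 32.1 and 38.9 in otd-uvi, against 19.1 and 27.4 in Canton S. The groups did not overlap, but the log2 difference of 0.44 (SE 0.29, 95% interval -0.24 to 1.11) did not pass (limma adjusted p = 0.517). Another (146593_s_at) was uneven within each group, at 22.6, 7.41 and 8.20 in otd-uvi and 2.41 and 11.5 in Canton S, and its groups overlapped. The remaining probe sets were background or near it. For 146590_s_at, 1 array stood apart, with 1.34, 13.9 and 2.04 in otd-uvi and 1.73 and 2.05 in Canton S. For 146591_s_at no array exceeded 3.04. The 3 dimmer probe sets had log2 differences of 0.47, 0.36 and 0.02.

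The dynein 2 heavy chain gene btv (beethoven), whose product drives the return transport, went the other way. Its probe set (146418_at) read 3.09, 2.28 and 2.06 in otd-uvi, against 9.12 and 8.61 in Canton S. The otd-uvi arrays were all lower, yet no array of either group exceeded its brightest control, so no fold is given. The log2 difference was -0.69 (SE 0.16, 95% interval -1.05 to -0.32), with an unadjusted p = 0.00292 that did not pass over all probe sets (limma adjusted p = 0.118).

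The log2 differences of the channel genes were all above 0, but their patterns over the arrays differed and none passed. nan and iav encode TRPV channel subunits that work together in the cilia of chordotonal neurons, the stretch and sound receptors. nan (148746_at) read 52.0, 8.87 and 43.8 in otd-uvi, against 11.4 and 7.53 in Canton S. Arrays 1 and 3 of otd-uvi were high and array 2 lay between the Canton S values, so the groups overlapped. Its log2 difference of 1.11 (SE 0.55, 95% interval -0.20 to 2.41; limma adjusted p = 0.407) ranged from 0.77 to 1.68 without 1 array. iav (144617_at) read 15.2, 16.4 and 16.4 in otd-uvi, against 12.8 and 10.6 in Canton S. These groups did not overlap, with a log2 difference of 0.29 (SE 0.24, 95% interval -0.28 to 0.86; limma adjusted p = 0.610). The 3 otd-uvi arrays also carried brighter control probe sets than either Canton S array.

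nompC encodes a mechanically gated TRPN channel and had 2 probe sets. The brighter (145822_at) read 3.62, 28.5 and 20.4 in otd-uvi, against 15.8 and 5.67 in Canton S. Here array 1 of otd-uvi was the lowest of all 5, whereas for nan it was the highest. The log2 difference was 0.34 (SE 0.52, 95% interval -0.87 to 1.56; limma adjusted p = 0.785). The other (143883_at) did not exceed the controls on any array, at 10.3, 3.80 and 4.37 in otd-uvi and 2.74 and 2.75 in Canton S, with a log2 difference of 0.37 (limma adjusted p = 0.482).

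nompA encodes an extracellular protein of the dendritic cap, which ties the tip of the sensory cilium to the cuticle. Its probe set (147012_at) read 35.7, 32.9 and 37.9 in otd-uvi, against 29.2 and 14.1 in Canton S. All otd-uvi arrays were higher, and the Canton S arrays differed from each other by more than the otd-uvi arrays did. The log2 difference was 0.60 (SE 0.32, 95% interval -0.16 to 1.36; limma adjusted p = 0.434), and it was 0.97 without Canton S array 1 and 0.22 without Canton S array 2.

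Rfx encodes a transcription factor that activates many genes of cilium assembly, IFT genes among them. It (143923_at) read 46.4, 37.9 and 45.3 in otd-uvi, against 46.0 and 41.5 in Canton S. The groups overlapped, and the log2 difference was -0.02 (SE 0.25, 95% interval -0.61 to 0.58; limma adjusted p = 0.980).

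**Figure D2:**
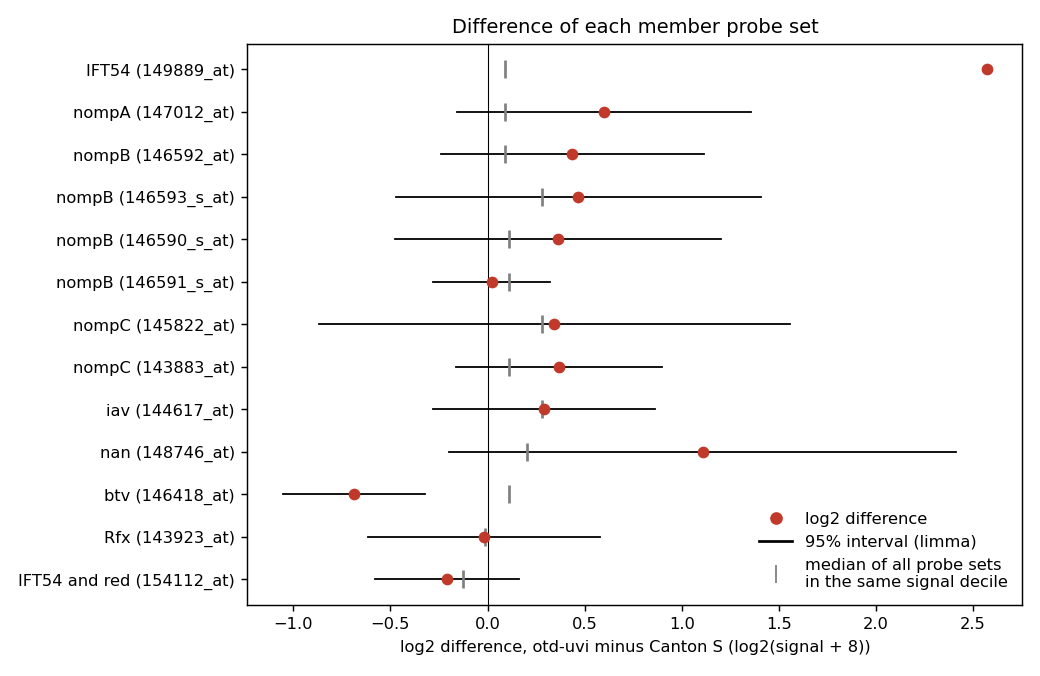
Log2 difference (otd-uvi minus Canton S, x axis) of each member probe set, with the 95% interval from limma for all but IFT54, which was chosen by its difference. Grey ticks are the median difference of all probe sets in the same decile of mean signal; IFT54 stands at 2.57 against a tick at 0.09, and of the other members btv alone has an interval that excludes 0.

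Across the 11 member probe sets other than IFT54, none passed an adjusted p under 0.05 in limma, where 0.773% of all probe sets did (0.322% higher and 0.451% lower in otd-uvi). An unadjusted p under 0.05 was reached by 1 of the 11, btv, which was lower, against 15% of all probe sets (7.77% higher and 7.27% lower in otd-uvi). The groups did not overlap for 4 of the 11 with otd-uvi higher (18.6% of all probe sets) and for 1 with otd-uvi lower (15.4% of all probe sets). The median log2 difference of the 11 was 0.36, against 0.05 over all probe sets. Of the 11, 9 were above 0. Dim probe sets as a whole were also above 0 more often, 77.1% of them in the first decile of mean signal and 57.1% in the fifth. The deciles that hold the 11 had a median log2 difference of 0.11 (the median over the 11), and 8 of the 11 exceeded the median of their own decile. These 11 probe sets belong to 7 genes, with 4 of nompB and 2 of nompC, so they are not independent. By the brightest probe set of each gene, 5 of 7 were above 0 and 5 of 7 exceeded the median of their decile. In these whole heads, fewer cells of a type and less RNA per cell cannot be told apart.

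The question was carried to 9 lists of cilium and sense organ genes, of which 79 of 93 genes had a probe set of their own, counted by the brightest. The lists also held sense organ channels, matrix proteins and transcription factors, which are not all parts of a cilium. All listed genes are called cilium genes below. Of the 78 genes other than IFT54, none passed in limma at an adjusted p under 0.05. An unadjusted p under 0.05 was reached by 11 of the 78, 14.1%, of which 7 were higher and 4 lower in otd-uvi, against 14.7% of all genes. The 7 higher were Oseg2 and Oseg5 (IFT-B), Oseg4 (IFT-A), BBS1 and Arl6 (BBSome list), dyl and ato. The 4 lower were Klp68D, btv, Trpgamma and Root, a gene of the transition zone and basal body list. The median log2 difference of the 78 was 0.16, and 66.7% were above 0, against 0.06 and 56.2% over all 10844 genes. Of the 78, 50.0% exceeded the median of their own signal decile. The sign followed signal, as it did over all genes. Of the 55 cilium genes in the lower 5 deciles of mean signal, 80.0% were above 0 (median 0.24; all genes 72.0%, median 0.18). Of the 23 in the upper 5 deciles, 34.8% were above 0 (median -0.24; all genes 41.9%, median -0.07). Against the Canton S mean, 48, 51 and 49 of the 78 were higher on otd-uvi arrays 1, 2 and 3.

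**Figure D3:**
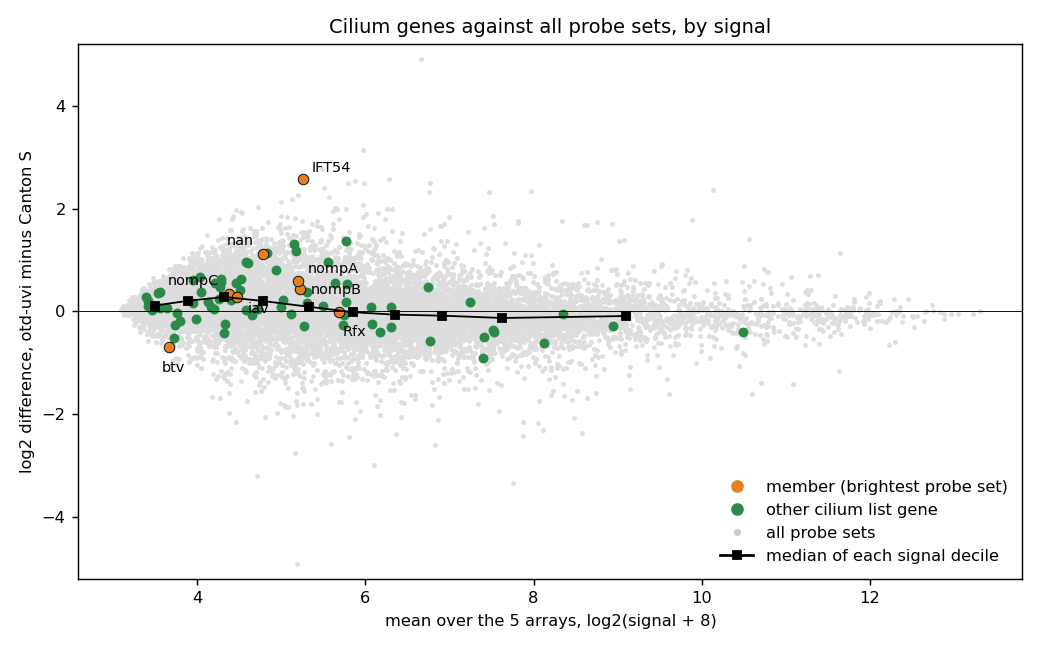
Log2 difference (otd-uvi minus Canton S, y axis) against mean log2(signal + 8) over the 5 arrays, for all probe sets in grey (1 lies outside the axis), the members by their brightest probe set in orange and other cilium list genes in green. The black line joins the medians of the signal deciles, from 0.28 in the third to -0.13 in the ninth; IFT54 lies far above it, while the other members lie within the grey cloud.

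IFT54 belongs to the intraflagellar transport B list, where 8 of 9 measured genes were above 0 (median 0.44), and none of the 8 other than IFT54 passed. Oseg2, the fly counterpart of IFT172, read 30.8, 26.5 and 14.5 in otd-uvi, against 6.89 and 9.30 in Canton S. Oseg5, the counterpart of IFT80, read 15.7, 26.9 and 29.3 in otd-uvi, against 9.73 and 7.12 in Canton S. Neither gene overlapped between groups, as was so with otd-uvi higher for 18.6% of all probe sets and 22.7% of those in their signal decile, the fourth. Each exceeded its brightest control on only 2 of the 3 otd-uvi arrays and 1 of the 2 Canton S arrays. The log2 differences of Oseg2 and Oseg5 were 0.96 (limma adjusted p = 0.247) and 0.94 (limma adjusted p = 0.236), and that of Ttc26 was 0.61 (limma adjusted p = 0.391). Ttc26 was near background, above its brightest control on 1 otd-uvi array and 0 Canton S arrays. In the intraflagellar transport A list, 4 of 5 were above 0 (median 0.08). Oseg4, the counterpart of IFT121, read 40.8, 45.5 and 40.6 in otd-uvi, against 13.1 and 15.2 in Canton S. Both groups exceeded their controls on every array and did not overlap. The log2 difference of Oseg4 was 1.18 (SE 0.27, 95% interval 0.55 to 1.81), with an unadjusted p = 0.00297 in limma. It did not pass over all probe sets (limma adjusted p = 0.119). Oseg6 was at -0.28 and IFT43 at 0.08.

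The motor and BBSome lists were split in sign. Of 4 motor genes 2 were above 0 (median -0.07): CG3769, a dynein 2 light intermediate chain, at 0.55 and Kap3, the accessory subunit of kinesin-2, at 0.47 (limma adjusted p of 0.402 and 0.427). Kap3 ranged from 0.13 to 0.81 without 1 array. Klp68D, a kinesin-2 motor subunit, was lower on every otd-uvi array, as were 15.4% of all probe sets. It read 193, 254 and 245 in otd-uvi, against 315 and 395 in Canton S (log2 difference -0.61, limma adjusted p = 0.212). Of 8 genes of the BBSome and ciliary GTPases, which sort membrane cargo into the cilium, 3 were above 0 (median -0.07). BBS1 read 58.6, 22.4 and 57.5 in otd-uvi, against 12.04 and 13.08 in Canton S (log2 difference 1.31, limma adjusted p = 0.222). Arl6, the small GTPase that recruits the BBSome, was at 0.67 and BBS8 at -0.42 (limma adjusted p of 0.259 and 0.617). Arl6 was near background, above its brightest control on 1 otd-uvi array and 0 Canton S arrays. BBS8 ranged from -0.66 to -0.11 without 1 array.

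The other lists held no gene past the threshold in limma either. Transition zone and basal body genes, which anchor and gate the cilium, had 14 of 18 above 0 (median 0.13), and 8 of the 18 exceeded the controls on no array. Their largest differences were in ana2, a centriole assembly gene, at 1.14, B9d1 at 0.80 and Mks1 at 0.63 (limma adjusted p of 0.398, 0.447 and 0.521). ana2 read 75.5, 12.6 and 26.2 in otd-uvi, against 10.6 and 8.72 in Canton S, and was at 0.59 without otd-uvi array 1. Without 1 array B9d1 ranged from 0.38 to 1.02 and Mks1 from 0.21 to 1.05. The axonemal motility list also held nocte, a chordotonal organ gene that is not an axonemal motor gene. This list had 8 of 12 above 0 (median 0.19), with nocte at -0.58, Dhc36C at 0.54 and Dnai2 at 0.47 (limma adjusted p of 0.350, 0.597 and 0.669). Dhc36C was at 0.12 and Dnai2 at 0.0061 without otd-uvi array 1, their highest array. Of 9 mechanosensory and TRP channel genes 5 were above 0 (median 0.29). Trpgamma, a TRPC channel gene, was lower on every otd-uvi array, as were 15.4% of all probe sets. It read 146, 129 and 98.8 in otd-uvi, against 219 and 259 in Canton S (log2 difference -0.91, SE 0.21, limma adjusted p = 0.120). TrpA1 was at 0.55 and ppk at 0.53, and both turned sign without 1 Canton S array, to -0.25 without array 1 and -0.13 without array 2.

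The matrix list held dyl, a zona pellucida protein gene of the apical cuticle that, like nompA, encodes an extracellular protein. dyl read 81.3, 54.8 and 81.4 in otd-uvi, against 24.5 and 21.2 in Canton S. It was higher without overlap, as were 18.6% of all probe sets. Its log2 difference of 1.37 (SE 0.28, 95% interval 0.71 to 2.02) had the lowest adjusted p of the 78 genes in limma, 0.0930. With the dimmest 40% of probe sets left out, its adjusted p was 0.0363, and over all settings tried it ranged from 0.0363 to 0.386. Of the 5 genes of this list, dyl and nompA were the 2 above 0 (median -0.37), with pio at -0.41 and dpy at -0.51 (limma adjusted p of 0.369 and 0.444). Without 1 array pio ranged from -0.69 to -0.13 and dpy from -0.91 to -0.11. Sense organ transcription factors had 7 of 9 above 0 (median 0.22). ato, the proneural gene of chordotonal organs, read 60.4, 46.2 and 55.3 in otd-uvi, against 36.5 and 14.4 in Canton S (log2 difference 0.97, limma adjusted p = 0.273), and its difference was 0.47 without Canton S array 2. fd3F, which acts with Rfx in chordotonal neurons, was at 0.57 and amos at 0.39 (limma adjusted p of 0.554 and 0.620). Without 1 array fd3F ranged from 0.30 to 0.96 and amos from 0.11 to 0.66.

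**Figure D4:**
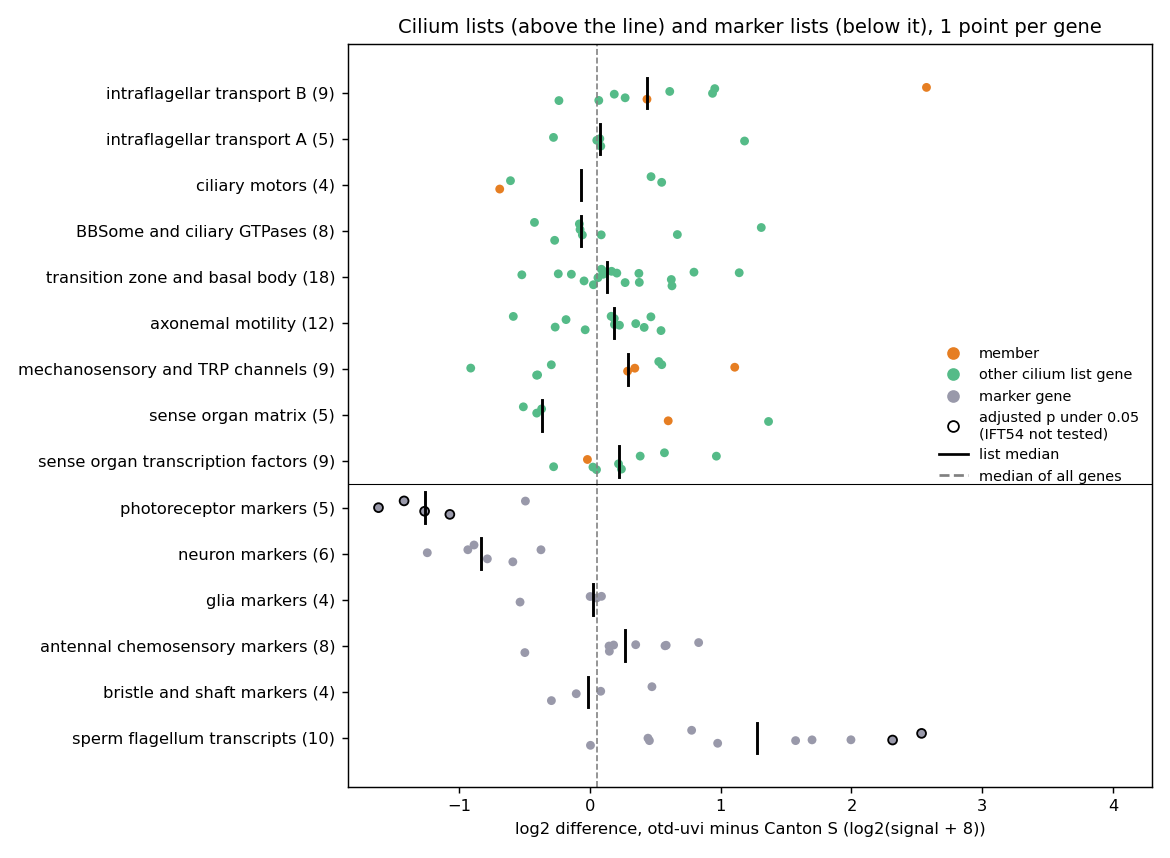
Log2 difference (otd-uvi minus Canton S, x axis) of each measured gene of the 9 cilium lists (above the horizontal line) and 6 marker lists (below it), with the number measured in brackets. Black bars are list medians, the dashed line is the median of all genes (0.06), and rings mark an adjusted p under 0.05 in genes other than IFT54, which was chosen by its difference and is left unringed. IFT54 is the isolated orange point at 2.57, and no other cilium gene is ringed.

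Among the marker lists, those of photoreceptors and sperm held genes past the threshold. Photoreceptor markers were lower, with 4 of 5 (Arr2, trp, inaD and chp) past the threshold in limma and summed signals of 4005 to 4801 in otd-uvi against 10267 to 10995 in Canton S. Neuron markers summed to 568 to 729 in otd-uvi and 1169 to 1219 in Canton S, with 0 of 6 past the threshold in limma and 3 at an unadjusted p under 0.05. Of 4 glia markers 3 were above 0 (median 0.03) and 0 passed in limma, with 1 at an unadjusted p under 0.05. Their sum, 1693 to 2112 in otd-uvi and 2227 to 2764 in Canton S, was mostly that of Gs2 (log2 difference -0.53, limma adjusted p = 0.219). Of 8 antennal chemosensory markers 7 were above 0 (median 0.27), 0 passed in limma and 0 reached an unadjusted p under 0.05. Their sums overlapped, at 1830 to 2084 in otd-uvi and 1685 to 2187 in Canton S, but came mostly from the odorant-binding protein genes Obp28a, Obp19d and Obp83b, whose products are secreted by support cells. Orco, the odorant co-receptor gene of ciliated olfactory neurons, read 37.4, 34.98 and 7.39 in otd-uvi, against 11.3 and 7.83 in Canton S, and the groups overlapped. Ir25a, an ionotropic co-receptor gene, read 10.1, 28.9 and 7.05 in otd-uvi, against 6.13 and 6.65 in Canton S. lush and Ir8a exceeded the controls on no array. Bristle and shaft markers also overlapped in sum, at 193 to 256 in otd-uvi and 212 to 220.5 in Canton S. The list of 10 sperm flagellum transcripts also held bam, a germline gene that is not a flagellum component. All 10 were above 0 (median 1.28), and Mst84Db and Mst84Dd rose past the threshold in limma. The list summed to 449 to 992 in otd-uvi and 198 to 199.8 in Canton S. Mst84Dd passed in 6 of 15 alternative settings; it did not pass with quantile normalization (adjusted p = 0.0532), a larger pseudocount (adjusted p = 0.0754) or no intensity trend (adjusted p = 0.0736). In the 5 fits without 1 array, chp passed in 3, Arr2, Mst84Db and Mst84Dd in 1 each, and trp and inaD in 0. dj and bam of the sperm flagellum list exceeded the controls on no array. The part of these cells in the values of the cilium genes was not tested.

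The genes around IFT54 on chromosome 3R were compared in the order of the reference annotation. trx, which encodes a histone methyltransferase and is separated from IFT54 by 3 annotated genes, read 73.7, 62.2 and 39.2 in otd-uvi, against 313 and 235 in Canton S. The groups were far apart, and trx fell by 2.11 on the log2 scale (SE 0.28, limma adjusted p = 0.0263). This call was lost in each of the 5 fits without 1 array, where the difference lay between -2.31 and -1.88. On the other side Crz, a neuropeptide gene also 3 genes away, read 21.99, 18.6 and 15.9 in otd-uvi, against 88.6 and 69.9 in Canton S. Of these otd-uvi arrays, 1 exceeded its brightest control. The log2 difference of -1.70 did not pass (limma adjusted p = 0.0535). Crz passed in 6 of 15 alternative settings, among them quantile normalization (adjusted p = 0.0473) and cyclic loess (adjusted p = 0.0393), and in 0 of the 5 without 1 array.

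su(Hw), an insulator protein gene, overlaps the annotated span of IFT54. It read 14.5, 10.3 and 15.4 in otd-uvi, against 21.6 and 25.9 in Canton S. The log2 difference was -0.57 (limma adjusted p = 0.385), but no otd-uvi array exceeded its brightest control. The neighbours were mixed by their brightest probe set. su(Hw), trx, Crz and Set8 were lower on every otd-uvi array than on either Canton S array, as were 15.4% of all probe sets. CG14840 was higher on every otd-uvi array, as were 18.6% of all probe sets. It was near background, at 16.9, 12.8 and 12.8 in otd-uvi against 11.4 and 8.29 in Canton S. In each group 1 array exceeded its brightest control. Whether the probes of IFT54 also match RNA of su(Hw) was not tested. By their brightest probe set, the other 5 measured neighbours lay between -0.35 (Set8) and 0.31 (CG14840), with none past the threshold in limma. Another probe set of Set8 read 31.0, 6.99 and 24.8 in otd-uvi against 49.4 and 41.0 in Canton S. Its log2 difference was lower still, at -0.99 (limma adjusted p = 0.358). A further probe set of Set8 overlapped between groups, at 26.4, 48.7 and 60.0 in otd-uvi against 71.1 and 44.8 in Canton S (log2 difference -0.34). By distance between log2 profiles centred on their own mean over the 5 arrays, the probe sets most like IFT54 were those of CG1143 (0.29), CG9150 (0.47), Nop10 (0.49), CG10953 (0.53) and CG3649 (0.62). None of these 5 was on a cilium list, but the lists held 79 of the 10844 genes measured. The profile of IFT54 holds the difference for which it was chosen. This comparison therefore cannot show whether the rise is shared.

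**Figure D5:**
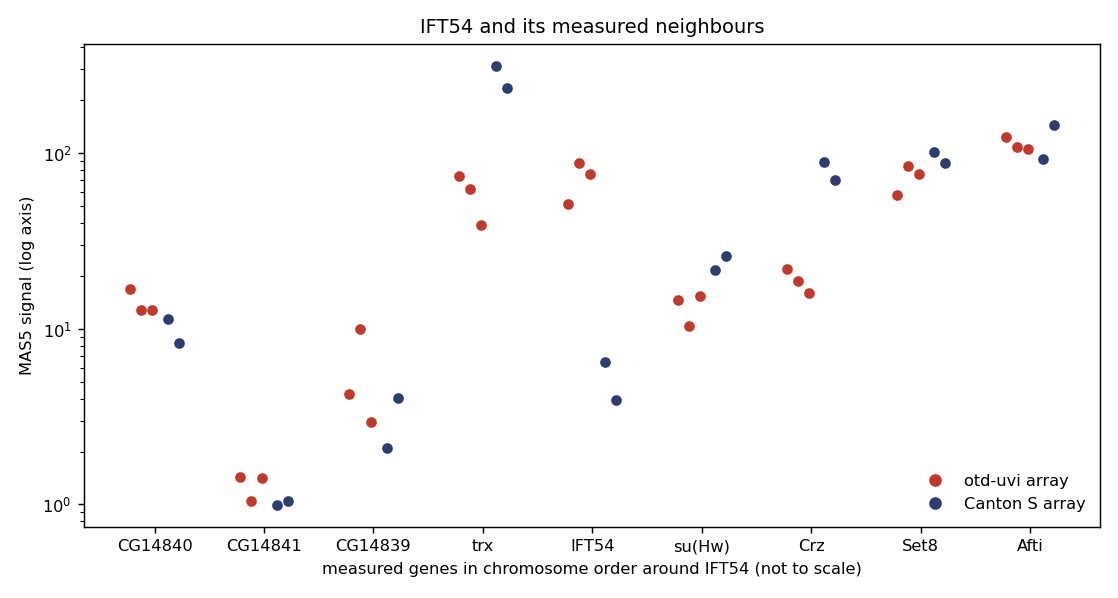
MAS5 signals (log axis) of IFT54 and of the 4 measured genes on each side of it in chromosome order, 1 point per array, otd-uvi in red at the left of each gene and Canton S in blue at the right. Each gene is shown by its brightest probe set. In these, trx, su(Hw), Crz and Set8 are lower on all 3 otd-uvi arrays than on either Canton S array. IFT54 and CG14840 are higher, CG14840 near background.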

How the data were processed

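Each sample was hybridised to an Affymetrix Drosophila array. The authors deposited linear signal intensities made with MAS5 per the submitters' processing notes; its settings, scaling target and detection calls are not given in the sources used here. Array medians were 39.96 to 43.1, and no further scaling was applied. After 44 control probe sets were set aside, a pseudocount of 8 (the 20th percentile of all signals, rounded) was added and the log2 values went into a linear model with strain as its only term (limma 3.58.1 under R 4.3.3, eBayes with an intensity trend; residual df 3, prior df 4.16) and Benjamini-Hochberg adjustment over 13966 probe sets. A probe set counted as above background where it exceeded the brightest of 8 mouse and yeast controls of its array. On simulated data of 13966 probe sets, 20% of the log2 differences of 1 and 88% of those of 2 were recovered, with 6 of 114 calls false; dim probe sets were not among those changed. Of 12443 single-gene probe sets, 12394 names were updated by gene ID through the RefSeq gene table (Release 6). The extractions were independent per the series' design text. Named were all member probe sets, cilium list genes past the threshold and up to 3 further genes a list with the largest difference. Also named were 4 measured neighbours on each side and the 5 nearest profiles. The single marker genes named, Root and the other probe sets of Set8 were chosen after their values were seen. The members and lists were chosen with earlier results of these data known. No sequence is shown, and no coordinates, as the sources used here name no build. Alternatives tried were other normalizations, pseudocount, floor, filter, variance model, array weights, replicate block, a 3-prime to 5-prime covariate and each array left out.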

Additional observations from a re-analysis of the deposited data

How the results depend on the processing

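The count of 108 probe sets past the threshold was 208 without the dimmest 40% of probe sets, 8 with the ratio of 3-prime to 5-prime control signal as a covariate, and 2 to 22 without 1 array (18, 22 and 8 without otd-uvi array 1, 2 and 3, and 3 and 2 without Canton S array 1 and 2). With the replicate number as a block it was 1; the numbers only name arrays, and deviations of same-numbered arrays correlated at -0.0045 and 0.115. The count of cilium genes other than IFT54 past the threshold was 0 in 14 of 15 alternatives, with 7 to 16 at an unadjusted p under 0.05 in limma, and 1 (dyl) without the dimmest probe sets, where 32 of the 78 genes were tested. Their median log2 difference of 0.16 was 0.017 with quantile normalization, 0.049 with cyclic loess, 0.11 with median centring, 0.065 with a pseudocount 4 times larger, 0.033 without the dimmest probe sets, and 0.11 to 0.19 without 1 array. The log2 difference of IFT54 ranged from 1.46 to 3.80 over the 15 alternatives. These reuse the arrays by which IFT54 was chosen, so its sign in them is no test of the rise. Some values near 0 changed sign. With quantile normalization, cyclic loess and median centring nompB (146591_s_at) was -0.083, -0.13 and -0.035, and CG14841 was -0.028, -0.098 and -0.014. Afti was 0.067 with quantile normalization and 0.061 with cyclic loess. With the covariate nompC (145822_at) was -0.28, Rfx 0.0058, Oseg6 0.11 and Afti 0.071. Without 1 array the ranges that crossed 0 were -0.029 to 0.59 for nompB (146590_s_at), -0.031 to 0.054 for nompB (146591_s_at), -0.057 to 0.83 for nompC (145822_at), -0.081 to 0.059 for Rfx, -0.018 to 0.17 for IFT43, -0.25 to 1.35 for TrpA1, -0.13 to 1.19 for ppk and -0.34 to 0.25 for Afti. The cause of these changes was not tested. With 5 arrays, differences near the spread of dim probe sets were not resolved.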
